A study of Drosophila melanogaster with 12 samples.

Results

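The fat body of control second-instar *Drosophila melanogaster* larvae was compared with the whole larva, to describe which genes the normal larval fat body expresses more and less than the animal around it. The comparison used 6 of the 12 RNA-seq samples of the series, 3 of dissected control fat bodies (replicates 5, 6 and 7) and 3 of control whole animals (replicates 1, 2 and 3). Both groups were labelled control heterozygotes, *dERR*1/+ in the methods on a *w1118* background, and carried 1 mutant copy of the estrogen-related receptor gene, so that neither is a wild type. All larvae were raised on yeasted molasses plates at 25 °C for 60 h according to the sample records, and the methods give an age a few hours later. Mutant *dERR*1/2 fat bodies and whole animals, 3 samples each, made up the rest of the series and entered the linear model and 1 comparison below.

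Fat body was dissected from decapitated larvae in groups of 5, and the methods call the sets of one genotype technical replicates, so the p-values measure the spread between these sets, which may be technical. No source says how whole larvae were pooled. A whole animal sample includes the fat body itself, and in bulk RNA fewer cells of a type and less RNA per cell cannot be told apart. Values are the deposited rlog values, normalized counts on a log2 scale on which a difference of 1 is a doubling, shrunk by the authors toward each gene's mean where counts are low. The comparison covered the 9922 genes, of 24134 listed, whose average in 1 group or the other reached the rlog value of 10 normalized counts.

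The larval fat body is the insect counterpart of liver and adipose tissue. It takes up nutrients from the hemolymph, stores them as triglyceride and glycogen, makes trehalose, the main blood sugar, and secretes most hemolymph proteins, among them the lipoproteins that carry lipid between organs. It is also a source of immune effectors, of basement membrane proteins and of signals that tie growth to nutrition.

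The label fat body fitted most of its markers and not others. The lipoprotein genes *apolpp*, *Apoltp* and *Mtp*, the lipid droplet gene *Lsd-1*, the glycine cleavage gene *ppl* and the GATA factor gene *srp* were all higher in fat bodies. The serum protein genes *Lsp1alpha*, *Lsp1beta* and *Lsp1gamma* were not called, and *Lsp2* and *Fbp1*, known from third-instar fat body, were below the filter in both groups. Fat body replicate 7 stood apart. Its correlation with the other fat bodies across the genes tested was 0.96 and 0.967, against 0.982 between replicates 5 and 6, and its median over the genes called lower below was 1.45, against −0.07 and 0.73 in replicates 5 and 6. Whole animals correlated with each other at 0.974 to 0.975. Between replicates of a gene the median SD was 0.221 for fat bodies and 0.132 for whole animals. The counts behind the values, and so the depth of each sample, are unknown.

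In control fat bodies 460 genes were higher (4.64% of those tested) and 3209 were lower (32.3%) than in whole animals, by limma's treat test against a log2 difference of 1 at a Benjamini-Hochberg adjusted p under 0.05. The remaining 6253 genes were not called. All 460 higher genes and 3206 of the 3209 lower genes had fat body values that did not overlap the whole animal values, as did 77.0% of all genes tested. The split depended on the scaling. The median difference of all genes was −0.36 as deposited, and it was 0.51 with each sample centred on its median and 0.43 after quantile normalization, where the counts became 2136 higher with 2758 lower and 2316 higher with 1711 lower. Higher genes made up 12.5% of calls as deposited, 43.6% after centring and 57.5% after quantile normalization. A gene's direction below is therefore relative to the deposited scaling. Without fat body replicate 7 the counts were 477 higher and 3357 lower.

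The 2 directions had different sizes. Genes higher in fat bodies had a median difference of 1.95, 210 of the 460 lay between 2 and 3, and 7 exceeded 3. Lower genes had a median difference of −5.72, 2722 of the 3209 lay below −3, and 111 lay below −10. For 2436 of the lower genes the fat body mean was under the filter, in the range where rlog shrinks values most, so that their differences are not bounds on a fold change. These genes passed the filter through whole animals alone, so their direction was largely set by it. Another 14, among the higher genes, passed through fat bodies alone. The genes called higher took 28.8% to 29.8% of the summed linear values in fat bodies, against 8.41% to 9.21% in whole animals. The genes called lower took 1.09% to 1.31% in fat bodies, against 25.2% to 27.0% in whole animals. At the edges of the call stood *CG4259* (1.55, adjusted p = 0.0497) inside and *CG1896* (1.31, adjusted p = 0.052) outside in the higher direction, and *CG13694* (−3.4, adjusted p = 0.0499) inside and *INPP5E* (−1.56, adjusted p = 0.0505) outside in the lower.

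**Figure D1:**
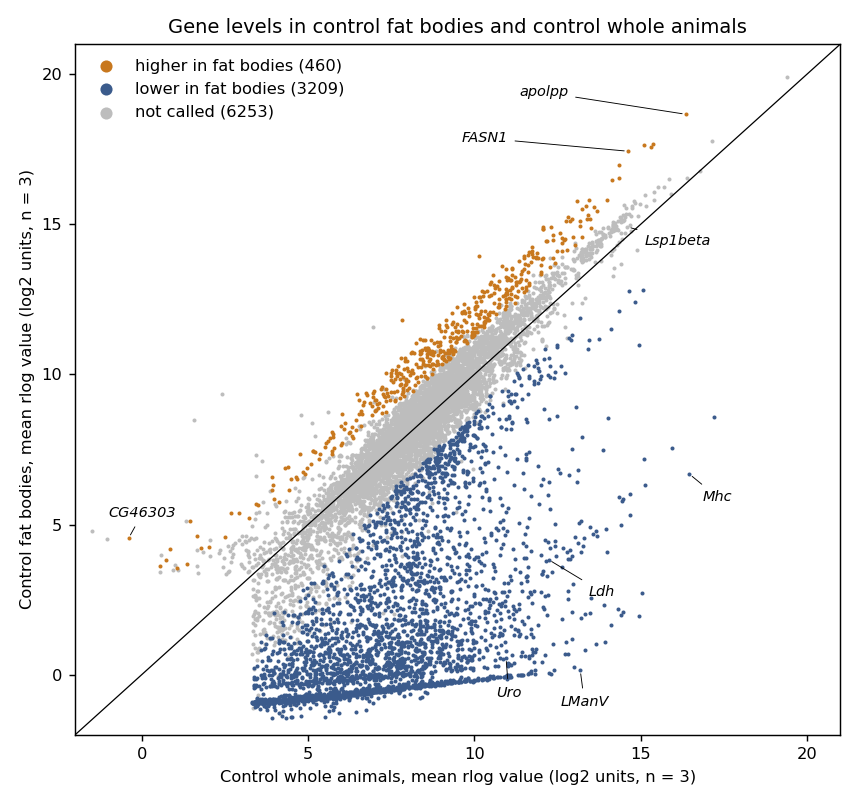
Mean rlog value of each of the 9922 genes tested in control fat bodies (vertical axis) and control whole animals (horizontal axis), both in log2 units with n = 3, with the line of equal values. The 460 genes called higher form a narrow band above the line, while the 3209 called lower spread down to fat body values near 0 and below.

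Among the 12 largest differences toward fat body were several genes with little signal. *CG46303* (3R, 5821972 to 5822435) had 5.14, 4.74 and 3.78 in fat bodies, against −0.82, 0.47 and −0.82 in whole animals (difference 4.94, standard error 0.73, adjusted p = 4.7e-04). *CG34256* (3.67), the transposon insertion *Burdock{}783* (3.33), *CG34460* (3.08), *vrs* (3.07) and *lncRNA:CR43411* (2.94) had fat body means under 6. The call of *CG34256* was lost without fat body replicate 5 (3.63, adjusted p = 0.051), without fat body replicate 7 (3.39, adjusted p = 0.06) and without whole animal replicate 3 (3.23, adjusted p = 0.079). The ribosomal RNA copy *18SrRNA:CR45841* (4.01) belongs to a repeated family whose reads the counting could split between copies, in poly-A selected RNA, and is uncertain. At high levels stood *CG13360* (X, 787855 to 790089), with 13.79, 13.99 and 14.05 in fat bodies, against 10.27, 9.59 and 10.57 in whole animals (3.80, standard error 0.21, adjusted p = 3.7e-07), *CG12116* (2.83), *CG13607* (2.82) and *CG43291* (2.88). The fatty acid synthase gene *FASN1* completes the 12.

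Basement membrane genes moved in both directions. Basement membrane is the sheet of collagen IV, laminin and linking proteins that coats larval organs, and the larval fat body is known as the main maker of its collagen. Of 13 genes tested 9 were higher and 4 lower in fat bodies (69.2% and 30.8%, against 4.64% and 32.3% of all genes tested). Their median difference was 2.15, against −0.36 for all genes. *SPARC*, encoding a collagen-binding glycoprotein, had 14.91, 14.90 and 14.74 in fat bodies, against 12.04, 12.25 and 11.91 in whole animals (2.78, standard error 0.11, adjusted p = 6.8e-08), and was chosen after its values were seen. The collagen IV chain genes *Col4a1* (2.56) and *vkg* (2.61), which lie side by side on 2L (5029609 to 5037279 and 5012144 to 5028191), were higher too, as were the 3 laminin chain genes of the list, the perlecan gene *trol* (1.98) and both genes for collagen-modifying enzymes. The 9 differences ran from 1.41 to 2.78, and the call of *trol* was lost after quantile normalization. Both collagen genes and *trol* were likewise chosen after their values were seen.

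The 4 genes lower in fat bodies were *Ndg*, *Ppn*, *Pxn* and *Mp*. *Ndg*, encoding nidogen, which links laminin to collagen, had 0.17, 4.11 and 3.85 in fat bodies, against 10.70, 10.47 and 10.74 in whole animals (−7.92, standard error 0.85, adjusted p = 2.0e-05). It had a fat body mean of 2.71 and passed the filter through whole animals alone, which largely set its direction. The papilin gene *Ppn* differed by −3.23 and the peroxidasin gene *Pxn*, whose enzyme cross-links collagen IV, by −2.98. The multiplexin gene *Mp*, for a collagen of another type, differed by −2.43, a call that neither rescaling kept, and was named after its values were seen. *Pxn* values were 6.48, 5.92 and 6.78 in fat bodies, against 9.63, 9.34 and 9.15 in whole animals. The groups did not overlap, as in 77.0% of all genes tested. Centring left 9 higher and 3 lower, quantile normalization 8 and 3, and leaving out fat body replicate 7 left 8 and 4.

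All 4 genes of lipoprotein particles and their assembly were higher in fat bodies, and of the lipophorin receptor genes only *LpR2* was lower. *apolpp* (chromosome 4, 1060969 to 1077273), encoding the apolipophorins of the main hemolymph lipoprotein, had 18.73, 18.29 and 18.96 in fat bodies, against 16.24, 16.52 and 16.28 in whole animals (2.31, standard error 0.23, adjusted p = 2.9e-04). *Apoltp*, for the lipid transfer particle that loads that lipoprotein, had 14.96, 14.57 and 15.23 in fat bodies, against 12.10, 12.55 and 12.21 in whole animals (2.63, adjusted p = 7.3e-05). The microsomal transfer protein gene *Mtp*, needed for particle assembly, differed by 2.07, and the lipoprotein family gene *cv-d* by 2.38 (adjusted p = 7.9e-07). The 12 fat body values of these 4 genes all lay above the whole animal values of the same gene, as held for all 460 genes called higher. After quantile normalization the call of *apolpp* was lost.

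The lipophorin receptors, which take up lipid from these particles, were not higher. *LpR1* had 8.26, 7.91 and 8.75 in fat bodies, against 7.98, 7.93 and 7.97 in whole animals, and was not called (0.35, 95% interval of limma from −0.20 to 0.90). *LpR2* had 3.28, 4.22 and 5.67 in fat bodies, against 8.96, 8.95 and 8.72 in whole animals (−4.48, standard error 0.49, adjusted p = 5.8e-05). Both lipocalin genes, relatives of apolipoprotein D, were lower, *NLaz* by −4.64 and *GLaz* by −3.39, though quantile normalization turned *GLaz* to 1.48. Of the sterol transfer genes in the list *Npc2b* was lower (−5.71, adjusted p = 1.3e-04), and *Npc2a* was not called (0.99) except with samples centred. *NLaz*, *GLaz* and *Npc2b* had fat body means of −0.88, 2.07 and 1.55. They passed the filter through whole animals alone, which largely set their direction. The *Npc2* family as a whole, looked up after values were seen, had 4 lower and 2 higher of 8, the higher ones being *Npc2g* (2.45) and *Npc2h* (2.66). The list had 4 higher and 4 lower of 10 (40.0% each, against 4.64% and 32.3% of all genes tested).

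Triglyceride genes were higher for storage, with 8 of 19 higher and 2 lower (42.1% and 10.5%, against 4.64% and 32.3% of all genes tested). The perilipin gene *Lsd-1*, whose protein guards the lipid droplet and gives lipases access on hormone command, had 14.41, 14.26 and 14.05 in fat bodies, against 11.82, 11.69 and 11.70 in whole animals (2.51, standard error 0.13, adjusted p = 8.8e-07). The droplet protein gene *Jabba* had 11.63, 11.60 and 11.67 in fat bodies, against 9.32, 9.04 and 9.10 in whole animals (2.48, adjusted p = 4.8e-06). *Lsd-2*, the other perilipin gene, differed by 1.91. The fat body values of these 3 droplet coat genes lay wholly above those of whole animals, as did those of all 460 genes called higher.

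Of the genes for the steps that build triglyceride from glycerol phosphate, some were higher in fat bodies and others for the same step were not. *Gpdh1*, which makes glycerol 3-phosphate, differed by 1.92, the acyltransferase gene *mino* by 1.73, and *Gpat4*, for the same step, had −0.88 and was not called. For the second acyl chain *Agpat2* had 11.91, 12.15 and 10.99 in fat bodies, against 9.22, 9.32 and 9.47 in whole animals (2.35, adjusted p = 4.8e-04). *Agpat1*, a gene of low signal, differed by −3.17 (adjusted p = 0.029). It had a fat body mean of 1.1 and passed the filter through whole animals alone, which largely set its direction. *Agpat3* (−0.30) and *Agpat4* (−0.42) were not called and turned positive when samples were centred. The call of *Agpat1* was lost without fat body replicate 5 (−2.32, adjusted p = 0.12), without whole animal replicate 2 (−3.18, adjusted p = 0.063) and without whole animal replicate 3 (−3.01, adjusted p = 0.082), and quantile normalization turned it to 1.5.

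The last step showed the same contrast between 2 enzymes. *mdy*, the DGAT1 gene, had 12.95, 12.90 and 12.83 in fat bodies, against 10.60, 10.68 and 10.59 in whole animals (2.27, standard error 0.10, adjusted p = 3.9e-07). *Dgat2* had 3.76, 4.73 and 4.78 in fat bodies, against 7.81, 7.90 and 7.71 in whole animals (−3.38, standard error 0.34, adjusted p = 6.0e-05). Of the side branches to phospholipid, *Pect* for phosphatidylethanolamine differed by 1.68 and *Cds* was not called (0.10). The phosphatidate phosphatase gene *Lpin* (0.44), *Seipin* (0.48) and *sturkopf* (0.34) were not called either. The lipase genes *bmm*, the ATGL counterpart, and *Hsl* had differences of −0.80 and −0.92 that did not pass the test, and each changed sign in 1 of the 2 rescalings.

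**Figure D2:**
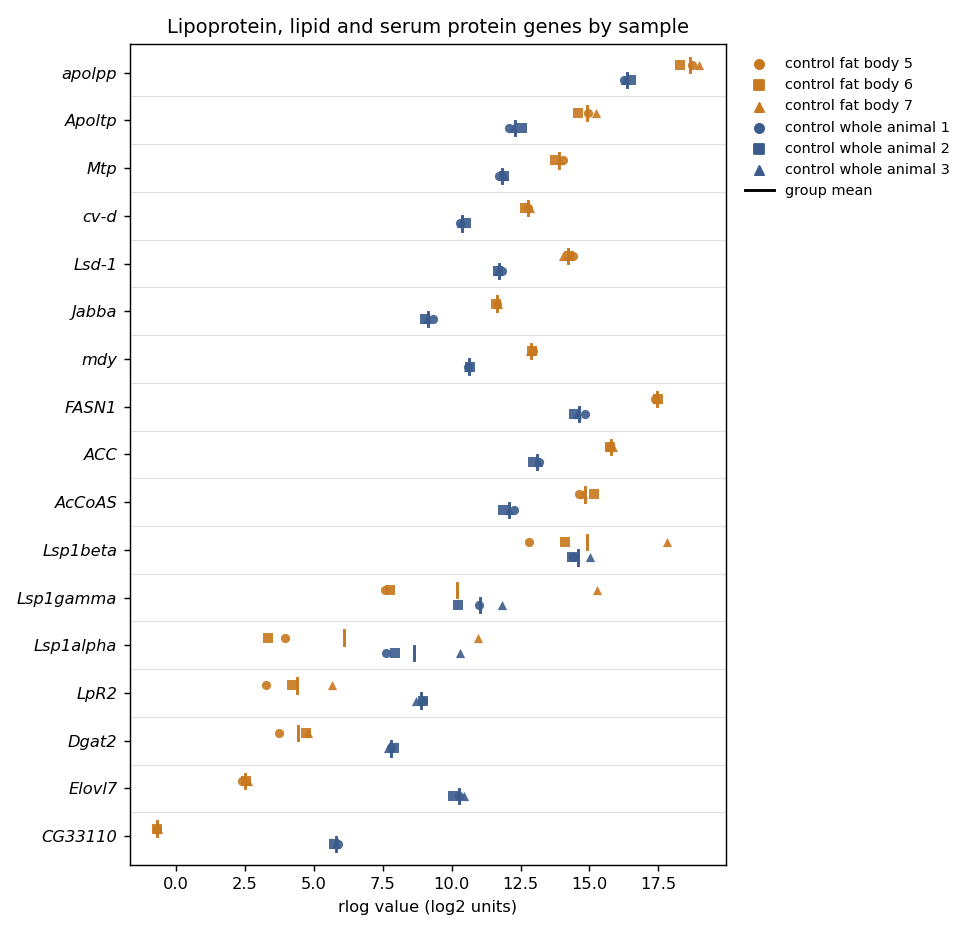
rlog value in log2 units (horizontal axis) of 17 lipoprotein, lipid and serum protein genes in each control fat body and each control whole animal, with group means as bars. *apolpp*, *mdy* and *FASN1* lie to the right of their whole animal values in every fat body, *LpR2* and *Dgat2* to the left, and the 3 *Lsp1* genes are far higher in fat body 7 than in fat bodies 5 and 6.

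Fatty acid synthesis had 9 of 18 genes higher and 4 lower, with a median difference of 1.43. *FASN1* (2L, 3056598 to 3068177) had 17.38, 17.48 and 17.44 in fat bodies, against 14.83, 14.45 and 14.54 in whole animals (2.83, standard error 0.15, adjusted p = 6.5e-07). *ACC*, for the enzyme that commits acetyl-CoA to fatty acids, had 15.70, 15.75 and 15.87 in fat bodies, against 13.17, 12.97 and 13.14 in whole animals (2.68). *AcCoAS*, which makes acetyl-CoA from acetate, differed by 2.77, and was like *ACC* chosen after its values were seen. The fat body values of all 3 genes lay above every whole animal value, as for all 460 genes called higher, and here by more than 2 units. Elongase family members went both ways. *Baldspot* was higher (1.94, adjusted p = 4.6e-04) and was named after its values were seen, and 3 others were among the 4 genes lower. *Elovl7* had 2.41, 2.53 and 2.61 in fat bodies, against 10.27, 10.04 and 10.45 in whole animals (−7.74, adjusted p = 6.6e-07), *CG5326* differed by −6.89 and *CG33110* by −6.47. These 3 elongase genes had fat body means of 2.51, 0.97 and −0.67. They passed the filter through whole animals alone, which largely set their direction. The remaining gene of the 4 was the malic enzyme gene *Men-b*, also in the list and named after its values were seen, at 5.53, 5.76 and 7.21 in fat bodies, against 11.53, 11.49 and 11.48 in whole animals (−5.33).

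Sugar genes were higher at the steps that make and move trehalose. *Tps1*, for trehalose 6-phosphate synthase, had 14.15, 14.14 and 13.71 in fat bodies, against 11.81, 11.74 and 11.61 in whole animals (2.28, adjusted p = 1.4e-06). *Tret1-1*, which carries trehalose out of fat body cells, had 13.38, 13.12 and 13.23 in fat bodies, against 10.78, 11.09 and 10.96 in whole animals (2.30, adjusted p = 7.9e-07), and its relative *Tret1-2*, at a much lower signal, differed by 2.18. In the list of trehalose and glycogen metabolism 5 of 12 genes were higher (41.7%, against 4.64% of all genes tested). The other 2 of these were *fbp* (1.77), of gluconeogenesis, and *UGP* (1.46), which makes UDP-glucose. The 1 gene lower was *Gyg* (−1.68), for the primer of glycogen, not called with samples centred, and these 3 genes were named after their values were seen. Glycolysis had 1 gene higher and 1 lower of 13 (7.69% each, against 4.64% and 32.3% of all genes tested). The hexokinase gene *Hex-C* had 12.49, 12.53 and 11.70 in fat bodies, against 9.61, 9.55 and 9.32 in whole animals (2.75, adjusted p = 1.5e-05). *Ldh*, for lactate dehydrogenase, had 3.70, 3.01 and 4.79 in fat bodies, against 12.31, 12.08 and 12.32 in whole animals (−8.40, adjusted p = 1.5e-07). The 11 other glycolytic genes had differences of −0.89 to 1.25 and were not called, and centring called 8 of the 13 higher.

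Mitochondrial and peroxisomal oxidation moved less. *PCB*, for pyruvate carboxylase, which refills the tricarboxylic acid cycle, had 15.08, 15.30 and 14.93 in fat bodies, against 12.92, 12.91 and 12.77 in whole animals (2.24, adjusted p = 8.5e-07). The succinyl-CoA synthetase gene *ScsbetaG* differed by 1.55 and the isocitrate dehydrogenase subunit gene *Idh3g* by −1.39, and the other 15 of 18 genes of the cycle were not called. Mitochondrial fatty acid oxidation had 4 of 16 genes higher (25.0%, against 4.64% of all genes tested) and none lower. The 4 were *Acsl* at 1.49, *scu* at 1.36, *Etf-QO* at 1.28 and *Etfb*, named after its values were seen, at 1.28. The call of *Etfb* was lost when any sample but fat body 7 was left out (1.2 to 1.3, adjusted p from 0.066 to 0.17). Without fat body replicate 5 the call of *scu* was lost (1.25, adjusted p = 0.068), and centring and quantile normalization gave 13 and 0 higher members. In the peroxisomal list 4 of 23 genes were lower (17.4%, against 32.3% of all genes tested) and none higher as deposited. The counts were 1 lower and 5 higher with samples centred and 2 lower and 4 higher after quantile normalization. *Pex7*, an import receptor, differed by −6.43. It had a fat body mean of 0.45 and passed the filter through whole animals alone, which largely set its direction. The acyl-CoA oxidase gene *Acox3* differed by −1.68. The others, named after their values were seen, were the catalase gene *Cat* (−1.57), not called without fat body replicate 6 (−1.35, adjusted p = 0.095) or whole animal replicate 3 (−1.50, adjusted p = 0.079), and *Pex11c* (−1.60), not called when any sample but fat body 7 was left out (−1.68 to −1.44, adjusted p from 0.054 to 0.17). Mevalonate and isoprenoid synthesis had 1 of 13 genes lower (7.69%, against 32.3% of all genes tested). It was *Mvd* (−2.11, adjusted p = 0.0046), which no rescaling kept.

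**Figure D3:**
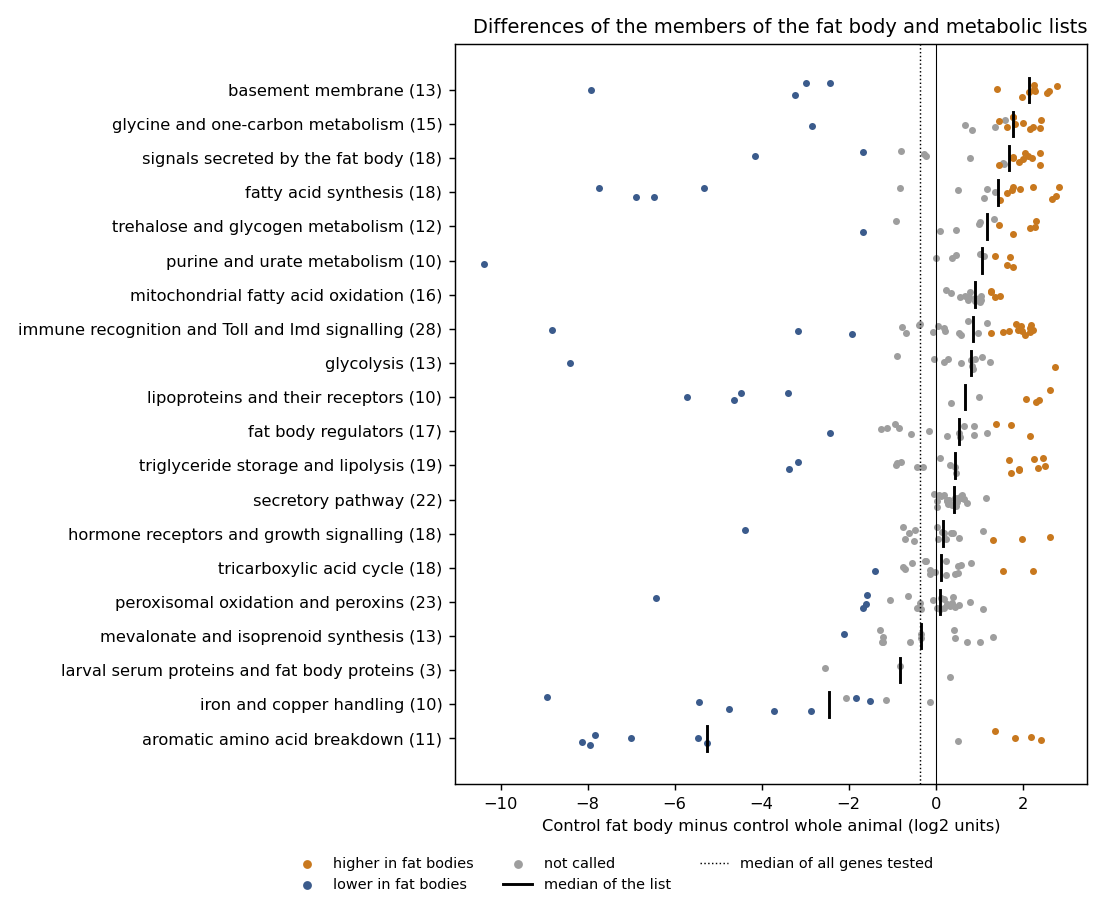
Difference between control fat bodies and control whole animals (log2 units, horizontal axis) for each member tested of 20 lists, the number in brackets, with the list median as a bar and the median of all genes, −0.36, as a dotted line. No member lies above 2.83 (*FASN1*), while lower members reach −10.39 (*Uro*).

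Of 15 glycine and one-carbon genes 10 were higher and 1 lower (66.7% and 6.67%, against 4.64% and 32.3% of all genes tested). The median difference was 1.77. The glycine cleavage system breaks glycine down to carbon dioxide, ammonia and a one-carbon unit, and 3 of its genes rose together. *CG6415*, for its aminomethyltransferase, had 14.13, 14.06 and 13.99 in fat bodies, against 11.50, 11.84 and 11.59 in whole animals (2.42, standard error 0.09, adjusted p = 5.8e-08). *CG3999*, for its decarboxylase, differed by 2.41 (adjusted p = 3.6e-07), and *ppl*, for its lipoyl carrier, by 2.18 (adjusted p = 3.2e-05). *Sardh*, which turns sarcosine into glycine, differed by 2.24, and like *ppl* was chosen after its values were seen. The only member lower was *Nmdmc*, a folate dehydrogenase gene, with 4.14, 4.46 and 5.60 in fat bodies, against 7.78, 7.52 and 7.47 in whole animals (−2.85, adjusted p = 9.8e-04).

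The breakdown of aromatic amino acids was divided within its 2 chains. Of 11 genes 4 were higher and 6 lower (36.4% and 54.5%, against 4.64% and 32.3% of all genes tested). In the tryptophan chain the first enzyme gene, *v* (X, 10923972 to 10925631), had 12.33, 11.98 and 11.89 in fat bodies, against 9.67, 9.61 and 9.65 in whole animals (2.43, standard error 0.14, adjusted p = 3.0e-06). *KFase*, for the formamidase of the next step, had 7.62, 6.97 and 7.62 in fat bodies, against 5.05, 5.43 and 5.16 in whole animals (2.19). *cn*, for the hydroxylase after it, on the way to brown eye pigment, had −0.29, −0.28 and 1.48 in fat bodies, against 7.30, 7.24 and 7.39 in whole animals (−7.01, adjusted p = 2.4e-06). So the first 2 steps were higher and the third was lower in fat bodies. *cn* had a fat body mean of 0.3 and passed the filter through whole animals alone, which largely set its direction. *Kyat*, which diverts kynurenine to kynurenic acid, differed by 1.36, a call lost without fat body replicates 5 (1.33, adjusted p = 0.09) or 6 (1.21, adjusted p = 0.14) and without whole animal replicates 1 (1.32, adjusted p = 0.097) or 2 (1.36, adjusted p = 0.069).

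In the phenylalanine and tyrosine chain the break came after the first step. *Hn*, for phenylalanine hydroxylase, which makes tyrosine, had 12.94, 12.70 and 12.74 in fat bodies, against 10.98, 11.01 and 10.91 in whole animals (1.82, adjusted p = 2.3e-05). *Tat*, for tyrosine aminotransferase, had 3.20, −0.21 and −0.18 in fat bodies, against 8.75, 9.37 and 9.06 in whole animals (−8.12, adjusted p = 5.4e-06). *Hpd* (−7.82) and *hgo* (−7.95), for the dioxygenases that follow, were lower as well. *Tat*, *Hpd* and *hgo* had fat body means of 0.94, 3.07 and 0.45. They too passed the filter through whole animals alone, which largely set their direction. *Faa* (−5.25) and *GstZ2* (−5.46), also in the list, were lower with fat body means of 3.92 and 3.48, above the filter. *GstZ1* was not called (0.51). *v*, *KFase*, *cn*, *Kyat*, *Hn*, *Faa*, *GstZ1* and *GstZ2* were chosen after their values were seen. The counts of 4 and 6 held without fat body replicate 7 and after quantile normalization, and centring gave 5 and 6.

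Purine genes showed a similar break at urate. *ry*, for xanthine dehydrogenase, which makes urate, had 10.58, 10.21 and 10.15 in fat bodies, against 8.43, 8.74 and 8.64 in whole animals (1.71, adjusted p = 9.2e-04). *Uro* (2L, 7780085 to 7781415), for the urate oxidase of the Malpighian tubule, had −0.02, −0.01 and 1.70 in fat bodies, against 11.04, 10.82 and 10.98 in whole animals (−10.39, standard error 0.67, adjusted p = 2.2e-07). *Uro* had a fat body mean of 0.56 and passed the filter through whole animals alone, which largely set its direction. The kinase gene *Adk2* differed by 1.79, and 4 of 10 genes of the list were higher (40.0%, against 4.64% of all genes tested). The other two, named after their values were seen, make purines anew, *Pfas* (1.65) and *Paics* (1.36). The call of *Paics* was lost when any sample but fat body 7 was left out (1.28 to 1.40, adjusted p from 0.055 to 0.15).

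**Figure D4:**
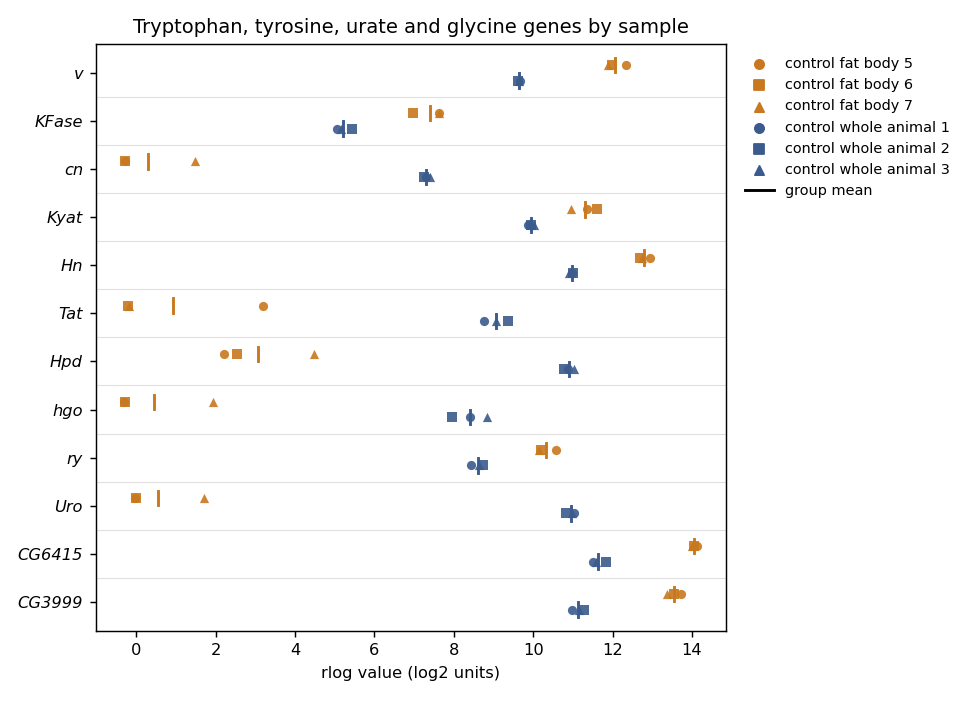
rlog value in log2 units (horizontal axis) of 12 genes of tryptophan, tyrosine, urate and glycine breakdown in each control fat body and each control whole animal, with group means as bars. *v*, *KFase*, *Kyat*, *Hn* and *ry* are to the right in fat bodies, and *cn*, *Tat*, *Hpd*, *hgo* and *Uro* are to the left.

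Genes of immune recognition were higher in 12 of 28 cases and lower in 3 (42.9% and 10.7%, against 4.64% and 32.3% of all genes tested). The median difference was 0.86. The larval fat body senses microbes in the hemolymph through recognition proteins and a protease cascade that activates the receptor Toll. *grass*, for a protease of that cascade, had 10.33, 10.21 and 9.51 in fat bodies, against 7.48, 7.89 and 7.99 in whole animals (2.23, adjusted p = 3.6e-04), and *psh*, for another, differed by 2.19 and was chosen after its values were seen. *Tep3*, for a thioester protein, had −0.18, −0.17 and −0.15 in fat bodies, against 8.73, 8.65 and 8.59 in whole animals (−8.83). It passed the filter through whole animals alone, which largely set its direction. *dl*, for the NF-kappaB factor Dorsal, had 5.52, 6.07 and 6.10 in fat bodies, against 9.12, 9.01 and 9.05 in whole animals (−3.16, adjusted p = 2.5e-06). The third, *PGRP-LB* (−1.92), for an amidase that degrades peptidoglycan, was named after its values were seen, and neither rescaling kept its call. Of the genes listed by symbol as antimicrobial peptide genes, 9 of 37 passed the filter. Of these 1 was higher and 2 were lower (11.1% and 22.2%, against 4.64% and 32.3% of all genes tested). The higher one, *IM33*, was listed by its symbol alone and is not established here as an antimicrobial peptide gene. *IM33* had 15.20, 14.97 and 15.18 in fat bodies, against 12.76, 12.77 and 12.73 in whole animals (2.36, adjusted p = 1.9e-07). *Drs* had 1.11, 4.01 and 3.35 in fat bodies, against 9.76, 7.06 and 6.54 in whole animals (−4.97), and *Dro* differed by −4.35. *Drs* and *Dro* had fat body means of 2.82 and 1.0. They passed the filter through whole animals alone, which largely set their direction. Whole animals varied by over 2 units in both, and quantile normalization called neither and turned *Dro* to 0.52.

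Secreted signals were higher in 10 of 18 cases and lower in 2 (55.6% and 11.1%, against 4.64% and 32.3% of all genes tested). *CCHa2*, for a peptide by which the fed fat body acts on insulin-producing neurons, had 12.28, 12.29 and 11.74 in fat bodies, against 9.78, 9.67 and 9.63 in whole animals (2.41, adjusted p = 2.8e-06). *Idgf5*, for a chitinase-like growth factor, had 11.76, 11.82 and 11.71 in fat bodies, against 9.25, 9.43 and 9.37 in whole animals (2.41, adjusted p = 5.2e-07). The growth-blocking peptide gene *Gbp2* (2.21) and the activin ligand gene *daw* (2.00), both chosen after their values were seen, were higher too. *Sdr*, for a secreted insulin receptor decoy, had −0.60, −0.59 and 3.49 in fat bodies, against 4.90, 4.98 and 4.86 in whole animals (−4.15, adjusted p = 0.015). It had a fat body mean of 0.77 and passed the filter through whole animals alone, which largely set its direction. Its call was lost without fat body replicate 5 (−3.47, adjusted p = 0.065) or 6 (−3.47, adjusted p = 0.067), and quantile normalization turned it to 0.71. The other gene lower was *Adgf-A* (−1.66), for an adenosine deaminase, named after its values were seen and called under neither rescaling.

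On the receiving side, 3 of 18 genes of hormone receptors and growth signalling were higher and 1 lower. These shares were 16.7% and 5.56%, against 4.64% and 32.3% of all genes tested. *AkhR*, for the receptor of adipokinetic hormone, the glucagon counterpart that mobilizes fat, had 10.75, 10.87 and 10.63 in fat bodies, against 8.02, 8.16 and 8.15 in whole animals (2.64, standard error 0.13, adjusted p = 3.9e-07). The epidermal growth factor receptor gene *Egfr* (1.33), named after its values were seen, was not called without fat body replicate 5 (1.24, adjusted p = 0.14), fat body replicate 7 (1.26, adjusted p = 0.11), whole animal replicate 1 (1.29, adjusted p = 0.10) or whole animal replicate 3 (1.31, adjusted p = 0.083). The amino acid transporter genes *mnd* and *slif* moved apart. *mnd* had 11.52, 11.60 and 11.23 in fat bodies, against 9.28, 9.57 and 9.52 in whole animals (1.99), and *slif* had 3.26, 4.30 and 3.33 in fat bodies, against 7.99, 7.94 and 8.11 in whole animals (−4.38, adjusted p = 2.6e-06).

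Among 17 regulators 3 were higher and 1 lower as deposited (17.6% and 5.88%, against 4.64% and 32.3% of all genes tested). The counts were 8 and 0 with samples centred and 3 and 0 after quantile normalization. *svp*, for the COUP nuclear receptor, had 10.60, 10.45 and 10.50 in fat bodies, against 8.17, 8.70 and 8.20 in whole animals (2.16, standard error 0.13, adjusted p = 8.6e-06). *srp*, for the GATA factor of fat body identity, had 10.65, 10.54 and 10.72 in fat bodies, against 8.76, 9.41 and 8.56 in whole animals (1.73, adjusted p = 0.0037). *Mondo*, for a sugar-sensing factor, differed by 1.38 (adjusted p = 0.022), a call lost without fat body replicate 6 (1.27, adjusted p = 0.095), without whole animal replicate 2 (1.36, adjusted p = 0.062) or without whole animal replicate 3 (1.31, adjusted p = 0.083). Both developmental factors, *svp* and *srp*, had fat body values clear of those of whole animals, as did all 460 genes called higher and 77.0% of all genes tested in 1 direction or the other.

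*EcR*, for the ecdysone receptor, had 4.38, 5.08 and 7.09 in fat bodies, against 8.01, 8.03 and 7.79 in whole animals (−2.43, adjusted p = 0.039). That call was lost when any sample but fat body 7 was left out, with differences of −2.51 to −1.86 and adjusted p from 0.067 to 0.17, and in the 6 control samples alone (adjusted p = 0.10). Its partner *usp* (−0.84) was not called. Of the metabolic nuclear receptors *Hnf4* (0.65), *ERR* (0.57) and *Hr96* (0.27) were not called, nor were the nutrient-linked factors *foxo* (0.54), *sug* (0.88), *bigmax* (0.89), *crc* (−0.16) and *cbt* (−0.57). With samples centred *Hnf4* (1.52), *foxo* (1.41), *sug* (1.75), *bigmax* (1.77) and *SREBP* (2.05) were called higher, and *bigmax* also after quantile normalization (1.9). *SREBP*, for the activator of lipid synthesis genes, had 12.81, 12.87 and 12.63 in fat bodies, against 11.60 in each whole animal (1.17, adjusted p = 0.083), and passed without fat body replicate 7 (1.24, adjusted p = 0.018). *CrebA* (−0.93), *Hr39* (−1.26) and *Eip75B* (−1.11) did not pass, except that *Hr39* passed without whole animal replicate 1 (−1.41, adjusted p = 0.035).

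The serum proteins are storage proteins that the fat body makes in large amounts late in larval life, and here they separated the fat body samples from each other. *Lsp1beta* (2L, 898500 to 901316) had 12.81, 14.10 and 17.82 in fat bodies, against 14.40, 14.38 and 15.01 in whole animals (0.32, standard error 1.1, adjusted p = 1). *Lsp1gamma* had 7.60, 7.77 and 15.26 in fat bodies, against 10.98, 10.24 and 11.82 in whole animals (−0.81). *Lsp1alpha* had 3.97, 3.34 and 10.97 in fat bodies, against 7.63, 7.94 and 10.31 in whole animals (−2.54). In all 3 genes fat body 7 was the highest of the 6 samples and fat bodies 5 and 6 were below every whole animal. Without replicate 7 *Lsp1alpha* (−4.97, adjusted p = 8.3e-04) and *Lsp1gamma* (−3.33, adjusted p = 0.0082) were lower in fat bodies and *Lsp1beta* turned to −1.14. *Fbp2*, also below the filter, was highest in fat body 7, at 1.58, 0.63 and 4.06 in fat bodies, against −1.0, 0.38 and 1.07 in whole animals.

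Metal and detoxification genes that were called were mostly lower, as were called genes of all kinds, of which 12.5% were higher. Of 10 genes for iron and copper handling 7 were lower (70.0%, against 32.3% of all genes tested) and none higher. The metallothionein gene *MtnB* had −0.36, −0.35 and −0.33 in fat bodies, against 8.88, 8.22 and 8.65 in whole animals (−8.93, adjusted p = 2.3e-09), and *MtnC* differed by −5.43. *MtnB* and *MtnC* had fat body means of −0.35 and −0.83. They passed the filter through whole animals alone, which largely set their direction. *Tsf1*, for the iron carrier transferrin of the hemolymph, had 6.50, 7.12 and 6.53 in fat bodies, against 11.31, 11.67 and 11.38 in whole animals (−4.74, adjusted p = 4.8e-06). Cytochrome P450 genes had 7 higher and 30 lower of 71 (9.86% and 42.3%, against 4.64% and 32.3% of all genes tested). They were led by *Cyp4g1* (−9.49), *Cyp6a18* (−8.83) and *Cyp301a1* (−7.72). Glutathione transferases had none higher and 9 lower of 33 (27.3%, against 32.3% of all genes tested), led by *GstE5* (−7.63), *GstE10* (−7.00) and *GstD8* (−6.22), and UDP-glycosyltransferases had 2 higher and 15 lower of 30, led by *Ugt37B1* (−7.68), *Ugt303B3* (−7.43) and *Ugt35E1* (−7.31). The higher P450 genes differed by 1.64 to 2.57 and the higher UDP-glycosyltransferases by 1.55 to 1.88. With samples centred the counts higher and lower were 12 and 28 for P450 genes, 7 and 9 for glutathione transferases and 5 and 12 for UDP-glycosyltransferases, and after quantile normalization they were 12 and 15, 1 and 8, and 7 and 10.

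Genes that every cell uses were not called. By limma's treat test none of 22 secretory pathway genes was called (median difference 0.41), nor any of 89 cytosolic ribosomal protein genes (0.72), 73 mitochondrial ribosomal protein genes (0.78) or 66 nuclear-encoded respiratory chain genes (0.55). At an unadjusted p under 0.05 the treat test passed 0 of them in each list, while the moderated test against no change put 16, 83, 73 and 59 of them higher at an adjusted p under 0.05. With samples centred on their medians 12, 83, 72 and 50 of these were called higher, and after quantile normalization 0, 0, 4 and 1. Without fat body replicate 7, 6 mitochondrial ribosomal protein genes were higher, and 3 cytosolic ribosomal protein genes and 1 respiratory chain gene were lower.

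Markers of most other larval organs were lower in fat bodies, to different depths. Many of these markers passed the filter through whole animals alone, so that their direction was largely set by the filter and the counts below describe the samples and test nothing. Of all genes tested 32.3% were lower. Midgut and digestive enzyme genes averaged 0.39 to 0.41 in fat bodies, against 9.5 to 9.78 in whole animals, and 43 of 47 passed the filter and were lower. The 47 listed took 0.00067% to 0.000847% of summed values in fat bodies, against 1.84% to 2.0% in whole animals. The 12 genes with the largest negative differences were mostly of this kind. The mannosidase gene *LManV* (2L, 8772946 to 8776263) had 0.14, 0.14 and 0.17 in fat bodies, against 13.32, 12.93 and 13.28 in whole animals (−13.03, standard error 0.21, adjusted p = 1.9e-11), with the neighbouring gene *LManVI* at −12.81. The serine protease genes *Jon99Ciii* (−12.97), *Jon99Fi* (−12.72), *Jon25Biii* (−12.42), *Jon99Fii* (−12.37), *Jon99Cii* (−12.32), *CG18180* (−12.44) and *CG30031* (−12.26), the lysozyme gene *LysD* (−12.63), the acyl-CoA binding gene *Acbp3* (−12.49) and *CG6933* (−12.24) make up the rest. The *Jon99C* and *Jon99F* pairs, the trypsins around *CG30031* and *LysD* have near-identical copies between which reads may have been split.

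Muscle genes had signal in fat bodies, with a mean over 20 genes of 4.49 to 6.0, against 12.4 to 12.71 in whole animals, and the 19 that passed the filter were lower. *Mhc*, the myosin heavy chain gene, had 5.70, 5.73 and 8.60 in fat bodies, against 16.59, 16.34 and 16.46 in whole animals (−9.79, standard error 0.65, adjusted p = 2.9e-07), with *Prm* at −9.40 and *Mlc1* at −9.36. Fat body 7 held more muscle signal, 0.0243% of summed values, than fat bodies 5 and 6 (0.00981% and 0.00805%), against 4.15% to 4.95% in whole animals. Neuronal genes were lower in 18 of 20 cases, with *fne* (−8.32) and *brp* (−8.12) at −0.43 to −0.38 in every fat body and *Gad1* at −7.93. The defining gene *elav* kept some signal, at 4.22, 3.58 and 4.20 in fat bodies, against 8.12, 8.65 and 8.03 in whole animals (−4.27). *nSyb*, another defining gene, differed by −6.66, and *Syt1* (−0.48) and *cpx* (−0.62) were not called. The Malpighian tubule list had 12 of 13 lower (*Uro*, *Drip* at −9.33 and *Oatp58Dc* at −8.49), the salivary gland list 8 of 8 (*ng2* at −7.37, *fkh* at −7.02 and *ng3* at −6.76), trachea 10 of 10 (*kkv* at −6.64, *serp* at −6.30 and *Gasp* at −6.28) and the ring gland, the source of ecdysone, 10 of 11 (*phm* at −8.23, *sad* at −8.09 and *spok* at −6.92). Of 133 cuticle protein genes listed 82 passed the filter and 80 were lower, and 101 of those with values had a fat body mean under 1. They were led by *Cpr65Ax1* (−11.59), *TwdlX* (−10.16) and *Cpr47Eb* (−9.48).

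The *Osiris* family, expressed in epithelia that lay down cuticle, had 13 of 25 genes past the filter, all 13 lower, and differed between fat bodies. *Osi6* had −0.22, −0.21 and 6.11 in fat bodies, against 13.37, 13.50 and 12.69 in whole animals (−11.30), *Osi7* differed by −10.82 and *Osi9* by −9.69. Signal of these genes in fat bodies was thus largely in replicate 7, at 0.00618% of summed values against 0.000195% and 0.000254% in replicates 5 and 6 and 0.229% to 0.365% in whole animals.

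After quantile normalization the lower members were 38 for midgut, 18 for muscle, 13 for neurons, 10 for Malpighian tubule, 8 for trachea, 12 for *Osiris*, 4 for salivary gland, 3 for the ring gland and 53 for cuticle, and *ng3* lost its call.

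Other cell types had fewer members lower. Of 11 hemocyte genes 5 were lower, with *PPO2* (−4.73), *PPO1* (−4.52) and *Sr-CI* (−2.81) leading, and the list took 0.0184% to 0.0243% in fat bodies, against 0.0464% to 0.0601% in whole animals. Of the defining glial genes *repo* was lower (−5.72). The other, *moody*, had 9.01, 8.66 and 8.97 in fat bodies, against 8.13, 8.25 and 7.93 in whole animals, and was not called (0.78). Glia had 5 of 11 lower, *repo*, *alrm* (−6.74) and *Gat* (−4.88) among them, but 2 higher. These were the glutamate transporter gene *Eaat1*, at 10.36, 10.65 and 10.52 in fat bodies, against 8.41, 8.54 and 8.31 in whole animals (2.09), and *vir-1*, at 11.84, 11.45 and 11.93 in fat bodies, against 10.36, 10.21 and 10.38 in whole animals, not called without fat body replicate 5 or 7 or whole animal replicate 2 (1.33 to 1.37, adjusted p = 0.051). Imaginal disc and proliferation genes had 8 of 19 lower (*nub* at −6.04, *en* at −5.29 and *Dll* at −5.17) and 1 higher, *ap* (2.02). Oenocytes, the hydrocarbon-making cells of the epidermis, had 4 of 8 lower (*Cyp4g1*, *FASN3* at −7.81 and *CG18609* at −5.59) and 1 higher, *spidey* (1.34). *Eaat1*, *vir-1*, *ap* and *spidey* were named after their values were seen. After quantile normalization 3 hemocyte, 3 glial, 2 oenocyte and 1 disc gene were lower, with *Sr-CI*, *repo*, *CG18609*, *nub*, *en* and *Dll* no longer called. Of 8 gonad genes tested only *ovo* was called, with 2.24, 3.54 and 5.15 in fat bodies, against 8.04, 8.21 and 8.38 in whole animals (−4.57), a call lost without fat body replicate 5 (−3.86, adjusted p = 0.053). The larval gonad lies within the fat body, and the mean rlog over 14 gonad genes was 1.56, 3.29 and 5.81 in fat bodies 5, 6 and 7, against 3.64 to 4.58 in whole animals. The part of other cell types in the values of fat body 7 was not tested, and without that sample the counts of lower members were 43 for midgut, 19 for muscle, 18 for neurons and 13 for *Osiris*, as with it.

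**Figure D5:**
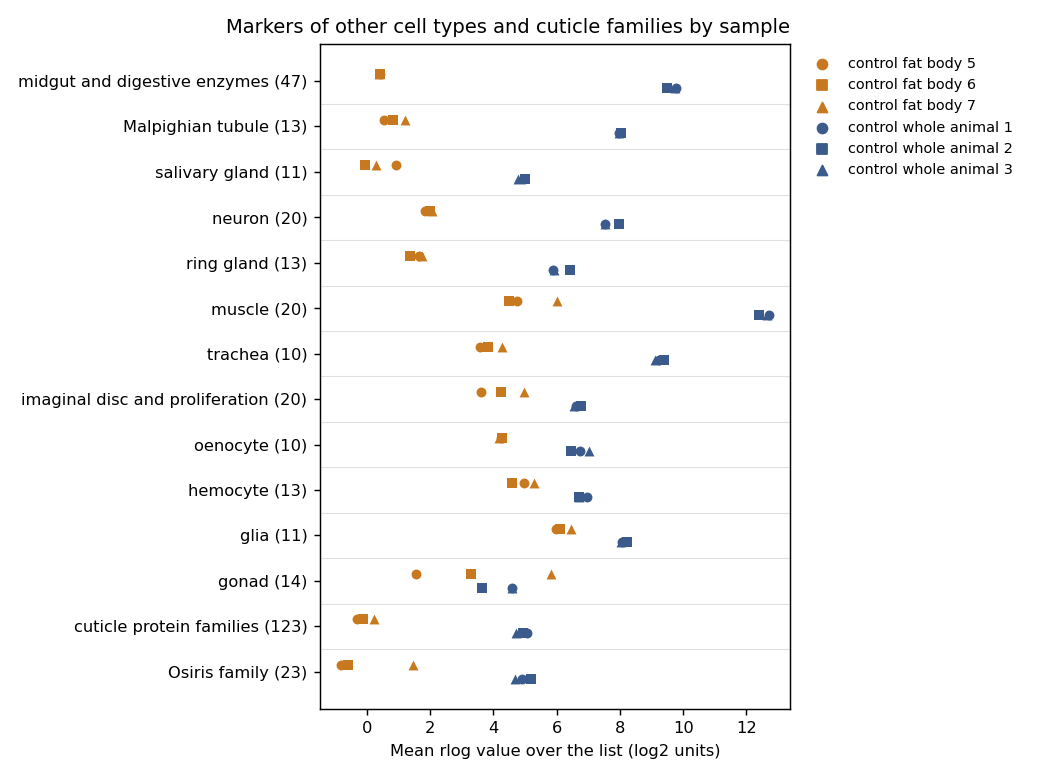
Mean rlog value in log2 units (horizontal axis) over each list of markers of other cell types and cuticle families, the number of genes in brackets, in each control fat body and each control whole animal. Midgut genes average 0.39 to 0.41 in fat bodies, against 9.5 to 9.78 in whole animals, while gonad genes spread over 1.56 to 5.81 in fat bodies.

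Some families were picked out after their values were seen and have no test as groups. Of all genes tested 4.64% were higher and 32.3% lower. Of 22 vacuolar ATPase subunit genes, which acidify compartments and energize epithelia, 20 were lower in fat bodies and none higher. *Vha16-1* had 12.40, 12.45 and 12.36 in fat bodies, against 14.89, 14.80 and 14.77 in whole animals (−2.42, standard error 0.07, adjusted p = 1.0e-08). Centring left 16 of them lower and quantile normalization 18. Neprilysins and neprilysin-like metalloproteases had 13 higher (by 1.81 to 2.81) and 6 lower (by −6.76 to −2.52) of 23. *Nepl20* had 11.20, 11.13 and 11.19 in fat bodies, against 8.17, 8.53 and 8.39 in whole animals (2.81, standard error 0.13, adjusted p = 1.8e-07). Tetraspanin genes had 24 lower and none higher of 29, against 14 and 1 after quantile normalization, and odorant-binding protein genes 13 lower and 4 higher of 18, against 6 and 4. The Nimrod B and C genes, for phagocytosis receptors and their secreted relatives, had 4 higher and 1 lower of 7, against 6 and 0.

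The tissue comparison was repeated in *dERR*1/2 mutants, with other samples but in the same linear model. Both comparisons used the same residual variance of each gene, and the genes were filtered on control means, so their calls are not separate tests. Of the 460 genes higher in control fat bodies 288 (62.6%) were also higher in mutant fat bodies, where 445 were (4.48% of those tested), and of the 3209 lower genes 2874 (89.6%) were also lower in mutants, where 3096 were (31.2%). The calls were opposite for 5 genes. The tissue difference itself differed between genotypes for 1015 genes (10.2% of those tested, limma interaction test at an adjusted p under 0.05), among them 131 of the higher and 352 of the lower genes. On the 5 large chromosome arms the share of genes higher was between 3.72% (3L) and 6.3% (2L) and the share lower between 29.9% (X) and 34.9% (3L), with no test of the difference.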

How the data were processed

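RNA was measured by stranded, poly-A selected, paired-end sequencing of 12 samples, 3 per group. The authors made the deposited log2 values by estimating transcript counts with Salmon 1.10.2 on the BDGP6.46 build (Ensembl annotation), summing to genes with tximport and applying the rlog function of DESeq2 1.42.0, which divides by size factors and shrinks low values. Counts and depth cannot be recovered from them. The values were fitted in R 4.3.3 with limma 3.58.1, because they are not counts, with 1 mean per group over all 12 samples and a variance trend. Genes that averaged at least the rlog value of 10 counts in either control group were tested by treat against a log2 difference of 1, with Benjamini-Hochberg adjustment over all 9922. With 3 samples against 3, an exact permutation p cannot go under 0.1.

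Members and lists were chosen with earlier results of these data known, and lists have counts and medians but no test. Named genes are the 12 largest differences in each direction without overlap, the 3 largest in each list, and every member of 4 lists (serum and fat body proteins, lipoproteins and receptors, triglyceride genes, regulators). Others are said to be chosen after their values were seen. Gene positions were read from Ensembl 115 (BDGP6.54), which placed 9912 of the 9922 genes. In simulated data 200 of the 9922 genes were changed, and 60 of 100 were recovered at a difference of 2 and 83 of 100 at 3. There were 0 false calls, which says little, because unchanged genes were held to the threshold of the treat test. In the real data 3669 genes were called, most of them lower, so the simulated rates do not measure recovery there. A planned description of promoter motifs was not made, since no promoter sequence was used here. Alternatives were other filters, the 6 control samples alone, array weights, no trend, centring, quantile normalization, other call rules, and leaving out each control sample.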

Additional observations from a re-analysis of the deposited data

Results flagged for a closer look

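For the following named genes the difference between fat bodies and whole animals in controls differed from that in mutants by limma's interaction test (adjusted p under 0.05), given here as the control difference minus the mutant difference on the log2 scale. In all, 1015 of 9922 genes passed. The control difference was the more positive for amino acid genes, by 1.81 for *ppl*, 1.47 for *Sardh*, 0.69 for *CG6415* and 0.61 for *Hn*. It was also the more positive for *Gyg* (2.06), *PGRP-LB* (1.22), *fbp* (1.12), *spidey* (0.97), *Etfb* (0.69), *ry* (0.88), *mdy* (0.71), *scu* (0.96), *PCB* (0.61), *IM33* (0.52), *Gbp2* (0.7), *foxo* (1.08), *Agpat4* (1.16), *NLaz* (1.27), *Tsf1* (3.18) and *lncRNA:CR43411* (3.72), of which *Gyg*, *PGRP-LB*, *NLaz* and *Tsf1* were lower in fat bodies of both genotypes and by more in mutants. The control difference was the more negative for *AkhR* (−0.74), *Adgf-A* (−1.1), *crc* (−0.57), *cbt* (−1.99), *Ldh* (−2.65) and *Dro* (−4.6). *Ldh* was −8.40 in controls and −5.75 in mutants, and *Dro* −4.35 in controls and 0.24 in mutants.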

How the results depend on the processing

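The count of lower genes stayed within 1.5 times 3209 under every alternative tried but quantile normalization (1711). The count of higher genes, 460, was 2136 with samples centred on their medians, 2316 after quantile normalization, 2502 with the test against no change and 783 when that test also required a difference over 1. The 434 list members called became 702 after centring and 832 with the test against no change. Leaving out each control sample gave 394 to 477 higher genes, 3091 to 3357 lower genes, 415 to 449 list members and 676 to 1323 genes passing the interaction test, whose lowest count, without whole animal replicate 1, was under that of the full set by more than 1.5 times (1015).

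Signs turned in centred samples for *Lsp1gamma* (0.07), *bmm* (0.07), *Agpat3* (0.57), *Agpat4* (0.46), *usp* (0.03), *crc* (0.71) and *cbt* (0.31), and after quantile normalization for *Agpat1* (1.5), *Sdr* (0.71), *Dro* (0.52), *Lsp1beta* (−0.33), *GLaz* (1.48) and *Hsl* (0.08). *Lsp1beta* turned with array weights (−0.67) and when a fat body was left out, with a range of −1.14 to 1.37, and *Lsp1gamma* likewise, with a range of −3.33 to 0.5 (0.41 without replicate 6). The cause was not tested. Beside the losses given above, calls were lost in centred samples for *Acox3*, *Idh3g*, *Cat* and *Pex11c*, and after quantile normalization for *NLaz*, *Dgat2*, *CG33110*, *Nmdmc*, *MtnC*, *Acsl*, *scu*, *Pex7*, *Mondo*, *UGP*, *Etfb* and *Pex11c*. Over all named genes and alternatives, 3179 differences kept their direction and side of the threshold, 119 lost the call and 35 gained it. Depth is unknown, so no limit could be derived from it, and the shrinkage of low values leaves the size of large negative differences uncertain. No paired analysis was possible because control fat bodies and control whole animals share no replicate number.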
